A study of Sus scrofa with 9 samples.

Results

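Cells that run short of oxygen switch on a set of genes through the hypoxia-inducible factors (HIF), and 34 genes of that system are described here across a culture of pig fibroblasts given insulin. The set holds the HIF subunits, the enzymes and partners that control them, and their target genes, without the glycolytic enzymes and collagen hydroxylases. Members were taken by gene symbol from a list that was chosen with earlier results of these data known. Of the 34, 29 were matched to a gene ID in the files, and all 29 passed the filter on low values, out of 11063 genes tested and 30477 gene IDs. STC1 and RORA were below 1 FPKM in every 0 h library. STC1 passed only through libraries given insulin and RORA only through those of 72 h, where they were higher. The counts called in each comparison and the medians are therefore also given without them, for the fit reported here. Other counts of the 29 below include both. VHL, EGLN2, VEGFB, CA9 and BNIP3 were not matched and were not analysed here.

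The cells were porcine embryonic fibroblasts, connective tissue cells grown from pig embryos. RNA was sequenced from untreated cells at 0 h, and from cells collected 48 h and 72 h after insulin was added, with 3 libraries at each time. The submitters call them biological replicates but do not say that they came from separate cultures, so p-values measure the spread between these libraries. The labels used here give no breed, number of embryos, insulin dose, medium or oxygen level. Untreated cells of 48 h and 72 h were not analysed here, so insulin and time in culture cannot be told apart.

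HIF is a dimer of an oxygen-sensitive alpha subunit, HIF1A or EPAS1, and the stable partner ARNT. When oxygen is present, the prolyl hydroxylases of the EGLN family mark the alpha subunit for destruction by the VHL complex, and HIF1AN blocks its contact with coactivators. Control is therefore largely at the level of the protein, which was not measured here. In several cultured cell types insulin is known to raise HIF1A protein through PI3K and mTOR signalling. Target genes serve blood vessel growth, acid and fuel handling, mitochondrial turnover and feedback on HIF itself.

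Values are FPKM, fragment counts scaled for gene length and library depth, as the authors deposited them. They summed to 487858 to 497665 per library at 0 h, 524992 to 563656 at 48 h and 505022 to 525471 at 72 h. The number of reads is unknown. Judged by the spacing of the lowest values, 48 h replicate 3 had 1.28 times the relative depth of 0 h replicate 1, and all others had 0.950 to 1.04 times. This is a rough estimate, as only 39 to 48 low genes per library matched at the ratio chosen, where 0 h replicate 1 matched itself at 704. All 8 matched fibroblast markers were expressed, and they moved in both directions, with 3 higher and 3 lower at 48 h and 4 higher and 1 lower at 72 h. Of all genes tested, 27.6% were higher and 22.4% lower at 48 h, and 23.0% and 22.5% at 72 h. LUM and DCN, proteoglycans of the matrix, were at 3.80 and 2.73 times their 0 h means at 72 h, and the collagens COL1A1, COL1A2 and COL3A1 fell at 48 h (log2 changes -0.21, -0.41 and -0.33). The defining markers PTPRC (leukocytes), CDH5 (endothelium), ADIPOQ (fat cells) and HBB (red cells) were listed at 0 in every library, and EPCAM (epithelium) reached at most 0.0800. The 8 matched genes of cell division all fell at both times, from a summed 307 to 330 FPKM at 0 h to 134 to 145 at 48 h and 59.6 to 76.1 at 72 h. Of all genes tested, 14.7% fell at both times. The 5 tested of 6 pericyte and smooth muscle markers also fell at both times, and the list summed to 1615 to 1648 FPKM at 0 h, 976 to 1051 at 48 h and 907 to 1129 at 72 h, most of it DES. The 4 epithelial markers summed to 5.56 to 6.77, 12.2 to 13.2 and 9.11 to 10.4 FPKM, most of it KRT8, which rose at both times. The 4 neural markers summed to 176 to 182, 203 to 249.8 and 182 to 192, within which TUBB3 rose from a mean of 66.6 FPKM to 150.0 and 138 and NES fell from 112 to 82.0 and 48.9. Sums of 7 leukocyte markers were 23.9 to 26.1, 25.7 to 27.4 and 26.1 to 28.8, mostly LYZ, while CD14 rose from 1.83 to 4.03 and 4.05 FPKM (adjusted p = 7.81e-04 and 6.24e-04) and CD68, too low to be tested, had means of 0.147, 0.330 and 0.583. The sums of the endothelial, fat cell and red cell lists were at or below 1.25. The part of these shifts in the results below was not tested. In bulk RNA, a change in the share of a kind of cell and a change in RNA per cell cannot be told apart.

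Most of the hypoxia genes were higher at 72 h than at 0 h, and fewer at 48 h. At 72 h, 21 of the 29 genes (72.4%) rose and 1 (3.45%) fell, where 23.0% of all genes tested rose and 22.5% fell. The median log2 change of the 29 was 0.49, against -0.01 for all genes. At 48 h, 12 (41.4%) rose and 4 (13.8%) fell, where 27.6% of all genes rose and 22.4% fell, with medians of 0.19 and 0.02. From 48 h to 72 h, 13 (44.8%) rose and 1 (3.45%) fell, against 9.17% and 16.3% of all genes, with medians of 0.26 and -0.03. In either direction, 49.9% of all genes were called at 48 h, 45.5% at 72 h and 25.4% between those times. A rise of at least 1 on the log2 scale at 72 h was seen for 4 members (EPAS1, STC1, CA12 and ADM), where 2.14% of all genes had one. With a pseudocount of 0.1 in place of 1 there were 7, with MXI1 (1.19), ANGPTL4 (1.11) and EGLN3 (1.03) added. Without STC1 and RORA, 11 of 27 genes rose at 48 h, 19 at 72 h and 12 between those times, and the falls were the same in number. The medians were then 0.19, 0.49 and 0.22. Calls are from limma on log2(FPKM + 1), at a Benjamini-Hochberg adjusted p below 0.05 over all genes tested. All p-values below are such adjusted p-values, and errors of log2 changes are standard errors. The comparisons with 0 h share the same 3 control libraries.

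**Figure D1:**
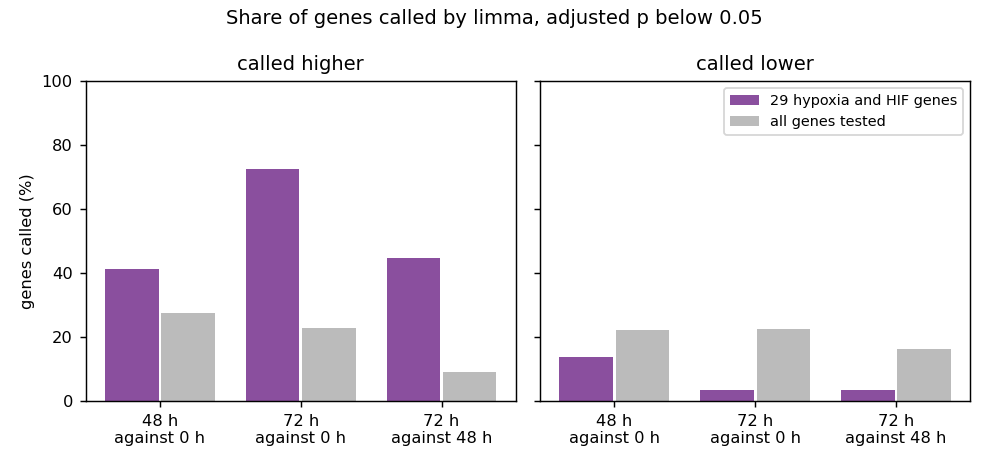
Share of genes called higher (left) or lower (right) in each comparison, in percent, for the 29 hypoxia and HIF genes and for all 11063 genes tested. The 29 genes stand at 72.4% higher at 72 h against 0 h, where all genes stand at 23.0%.

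The 72 h count was 21 rises and 1 fall whichever 0 h or 72 h library was left out. In those fits 19.1% to 22.4% of all genes rose and 17.9% to 21.1% fell. The 48 h count was not stable. It was 5 rises (17.2%) without 0 h replicate 1, where 23.3% of all genes rose, and 5 (17.2%) without 0 h replicate 3, against 22.7%. It was 6 (20.7%) without 48 h replicate 2, against 22.8%, and 8 (27.6%) without 48 h replicate 3, against 27.8%, so in these 4 fits the share of the members was at or below that of all genes. It was 10 (34.5%, against 22.6%) without 0 h replicate 2 and 14 (48.3%, against 23.4%) without 48 h replicate 1. Scaling every library to the same FPKM sum moved the median of all genes by -0.12 at 48 h. Then 6 of the 29 genes (20.7%) rose and 7 (24.1%) fell, where 17.7% of all genes rose and 33.4% fell. The 48 h rises lost there were those of CITED2 (0.05), ERO1A (0.14), HILPDA (0.18), EGLN1 (0.25), EGLN3 (0.27) and ANKRD37 (0.30), with adjusted p from 0.109 to 0.456, and the falls gained were those of HIF1AN, CA12 and WSB1. Among all genes the share of 48 h calls that were rises went from 55.2% to 34.7% under that scaling, and for 72 h against 48 h from 36.0% to 55.9%. The 48 h rises of 5 genes (EPAS1, ADM, ANGPTL4, NDRG1 and FAM162A) and all 4 falls (ARNT, VLDLR, TMEM45A and STC2) were called under every setting that had been planned. By the F-test over the 3 times, 27 of the 29 genes differed, where 60.6% of all genes did.

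Among the subunits, EPAS1 rose step by step, ARNT fell and then rose, and HIF1A was above its 0 h level at 72 h. EPAS1, the alpha subunit also called HIF-2 alpha, is a gene of chromosome 3 (94167759 to 94253662, RefSeq, Sscrofa11.1). It stood at 26.8, 27.4 and 25.6 FPKM in 0 h replicates 1, 2 and 3, at 40.6, 51.3 and 51.0 at 48 h, and at 71.5, 83.6 and 69.6 at 72 h. No library of one time overlapped with another time. The log2 change was 0.81 ± 0.10 at 48 h (adjusted p = 9.34e-05) and 1.45 ± 0.10 at 72 h (adjusted p = 7.12e-07), the largest of the 29 at 72 h with a pseudocount of 1, while with 0.1 STC1 was ahead (2.43 against 1.48). From 48 h to 72 h it rose by a further 0.65 ± 0.10 (adjusted p = 0.00112).

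HIF1A, the ubiquitous alpha subunit, on chromosome 1 at 190625436 to 190673926, had the highest level of the 29 genes at each time. Its 0 h libraries held 272, 280.2 and 287 FPKM, its 48 h libraries 209, 239.7 and 303, and its 72 h libraries 389, 346 and 387. The 48 h libraries were widely spread, below and above the 0 h range, while every 72 h library lay above all others. HIF1A was at -0.18 ± 0.11 at 48 h (adjusted p = 0.214) and rose by 0.42 ± 0.11 at 72 h (adjusted p = 0.0110), a call lost under quantile normalization (0.32, adjusted p = 0.0662). From 48 h to 72 h it rose by 0.59 ± 0.11 (adjusted p = 0.00397). The test at 48 h gave a fall without 48 h replicate 3, under quantile normalization and with library weights.

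ARNT, the shared partner of both alpha subunits, lies on chromosome 4 at 98333431 to 98390012. The 0 h libraries had 78.6, 76.0 and 78.1 FPKM, the 48 h libraries 57.3, 56.0 and 59.8, and the 72 h libraries 114, 99.2 and 115. The 3 times did not overlap, with 48 h lowest and 72 h highest. ARNT fell by 0.42 on the log2 scale at 48 h (SE 0.06, adjusted p = 4.57e-04) and rose by 0.49 ± 0.06 at 72 h (adjusted p = 1.30e-04), and it was the only member called in opposite directions at the 2 times. Its rise from 48 h to 72 h was 0.91 ± 0.06 (adjusted p = 1.22e-05). All of these calls were kept under every setting tried. The span of ARNT overlaps that of its neighbour CTSK, whose values were not analysed here.

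**Figure D2:**
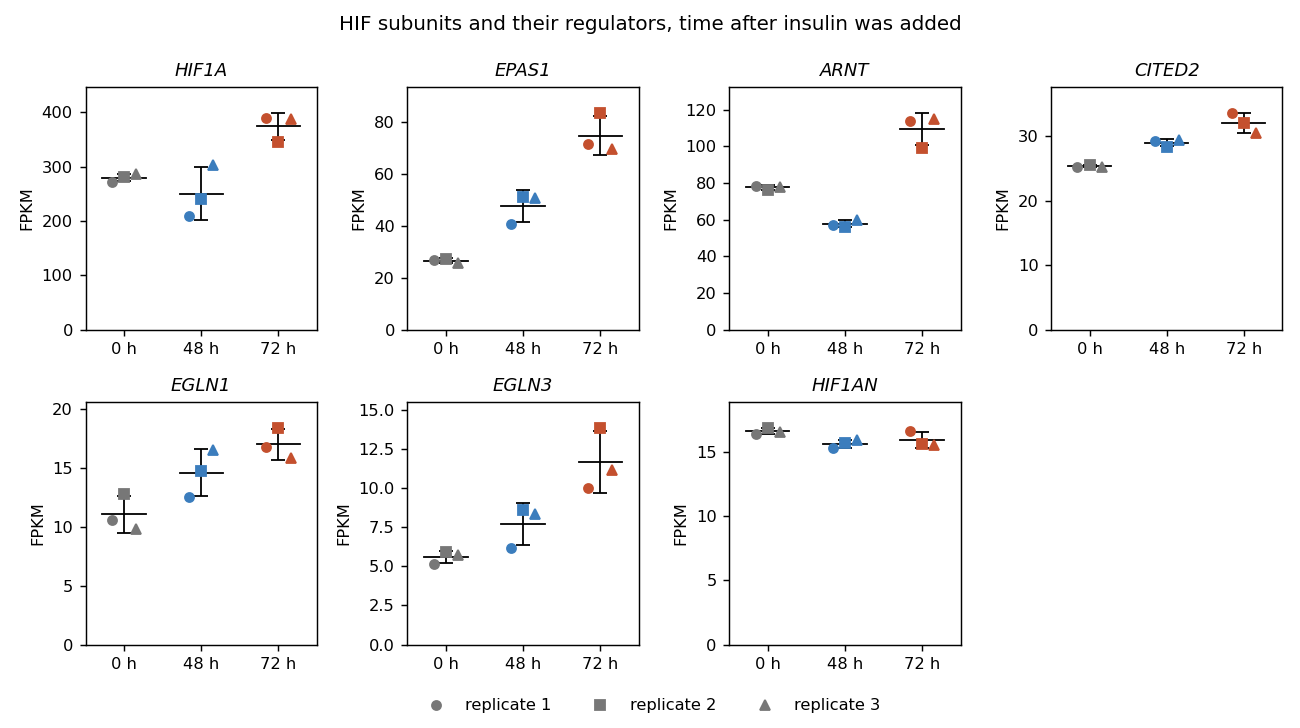
FPKM of the HIF subunits HIF1A, EPAS1 and ARNT and of the regulators CITED2, EGLN1, EGLN3 and HIF1AN in each library at 0 h, 48 h and 72 h. Points are libraries, with shapes for replicates 1 to 3, horizontal lines are means and bars are SD (n = 3). EPAS1 climbs from 26.6 to 74.9 FPKM, and ARNT dips to 57.7 FPKM at 48 h.

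Of 4 measured regulators that limit HIF, 3 rose and HIF1AN did not pass the test. EGLN1, the main oxygen sensor of the family, stood at 10.6, 12.7 and 9.77 FPKM at 0 h, at 12.5, 14.7 and 16.5 at 48 h, and at 16.8, 18.4 and 15.8 at 72 h. The 0 h and 48 h libraries overlapped slightly, and the 72 h libraries lay above 0 h. It rose by 0.37 ± 0.11 at 48 h (adjusted p = 0.0186) and 0.59 ± 0.11 at 72 h (adjusted p = 0.00161). The 48 h call was lost without either 0 h replicate 1 or 3 and without 48 h replicate 2 or 3 (adjusted p = 0.0574, 0.0779, 0.0539 and 0.0600).

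EGLN3, a hydroxylase that is itself a classic HIF target, went from 5.14, 5.92 and 5.71 FPKM at 0 h to 6.17, 8.60 and 8.31 at 48 h and 9.97, 13.8 and 11.12 at 72 h. None of the times overlapped, with replicate 1 the lowest library of each. The log2 change was 0.39 ± 0.13 at 48 h (adjusted p = 0.0297) and 0.93 ± 0.13 at 72 h (adjusted p = 2.00e-04). Without 0 h replicate 1 or 3, or 48 h replicate 2 or 3, the 48 h call was lost (adjusted p = 0.0942, 0.0621, 0.110 and 0.0810). The step from 48 h to 72 h was 0.54 ± 0.13 (adjusted p = 0.0141).

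CITED2 competes with the HIF alpha subunits for the coactivators CREBBP and EP300. Its libraries held 25.3, 25.6 and 25.3 FPKM at 0 h, 29.3, 28.4 and 29.4 at 48 h, and 33.6, 32.0 and 30.6 at 72 h. The groups were tight and did not overlap. CITED2 rose by 0.19 ± 0.06 at 48 h (adjusted p = 0.0169), but by only 0.05 at equal FPKM sums (adjusted p = 0.456), and by 0.33 ± 0.06 at 72 h (adjusted p = 7.31e-04). Leaving out 0 h replicate 1 or 3 also ended the 48 h call (adjusted p = 0.0536 and 0.0537).

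HIF1AN, the asparagine hydroxylase that blocks HIF from its coactivators, was not called in any comparison or by the F-test (adjusted p = 0.399) in the fit reported here. Its libraries lay at 16.4, 16.9 and 16.6 FPKM at 0 h, 15.3, 15.7 and 15.9 at 48 h, and 16.7, 15.6 and 15.5 at 72 h. The range was narrow, but every 48 h library was below every 0 h library. Its log2 changes were -0.08 ± 0.06 (adjusted p = 0.240) at 48 h and -0.06 ± 0.06 (adjusted p = 0.428) at 72 h. At 48 h it was called as a fall at equal FPKM sums (-0.21, adjusted p = 0.0186), after rescaling to protein-coding genes (-0.19, adjusted p = 0.0283) and with library weights (-0.08, adjusted p = 0.0446).

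Of 5 targets that encode secreted proteins, 4 rose at 72 h, and STC2 fell at 48 h. VEGFA, the growth factor that draws new vessels, lies on chromosome 7 at 38746393 to 38762282. It held 124, 132 and 129.5 FPKM at 0 h, 131, 176 and 174 at 48 h, and 217, 262 and 192 at 72 h. One 48 h library, replicate 1, stood within the 0 h range, and all 72 h libraries were above all others. VEGFA was at 0.31 ± 0.12 at 48 h (adjusted p = 0.0623), or at 0.44 and called without replicate 1 (adjusted p = 0.00886), and rose by 0.79 ± 0.12 at 72 h (adjusted p = 4.58e-04). Leaving out 72 h replicate 2 or 3, or fitting only the 0 h and 48 h groups, also gave a 48 h call (adjusted p = 0.0341, 0.0462 and 0.0413). The rise from 48 h to 72 h, 0.48 ± 0.12 (adjusted p = 0.0192), was lost without 48 h replicate 1 (adjusted p = 0.0527) or 72 h replicate 2 (adjusted p = 0.0512).

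ADM encodes adrenomedullin, a peptide that widens vessels. Its FPKM was 10.8, 10.2 and 10.9 at 0 h, 18.9, 21.0 and 18.7 at 48 h, and 18.2, 31.2 and 21.1 at 72 h. Both insulin groups lay clear of 0 h but overlapped with each other, with 72 h replicate 2 far above the rest. The log2 change was 0.82 ± 0.15 at 48 h (adjusted p = 0.00136) and 1.04 ± 0.15 at 72 h (adjusted p = 2.35e-04).

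STC1, stanniocalcin, a hormone first known from calcium control in fish, was the lowest of the 29 at 0 h, with 0.280, 0.410 and 0.290 FPKM. At 48 h it stood at 0.580, 1.69 and 1.2, and at 72 h at 1.64, 3.27 and 1.91 FPKM. Both insulin groups were above 0 h, and they overlapped by a narrow margin. Its mean was 3.54 times the 0 h mean at 48 h and 6.96 times at 72 h, but log2 changes with a pseudocount of 1 were 0.67 ± 0.21 (adjusted p = 0.0201) and 1.27 ± 0.21 (adjusted p = 5.21e-04), against 1.46 and 2.43 with a pseudocount of 0.1. STC1 passed the filter only through libraries given insulin, and with no filter the adjusted p was 0.0592 at 48 h and 0.00370 at 72 h. The 48 h call was also lost without 0 h replicate 1 or 3 or 48 h replicate 2 (adjusted p = 0.0537, 0.0554 and 0.0817). From 48 h to 72 h it was at 0.60 ± 0.21 and was not called (adjusted p = 0.0527). That step was called at equal FPKM sums, after rescaling to protein-coding genes, under quantile normalization and with a term for replicate number. STC1 was also called there without 48 h replicate 2 or 72 h replicate 1 (adjusted p = 0.0327 and 0.0469). Its relative STC2, by contrast, fell by 0.27 on the log2 scale at 48 h (SE 0.07, adjusted p = 0.00749), from 53.9 ± 1.45 (SD, n = 3) to 44.5 ± 3.55 FPKM, and was at -0.13 at 72 h (adjusted p = 0.138). Every 72 h library of STC2 was still below every 0 h library. The 72 h value was called as a fall under quantile normalization (-0.21, adjusted p = 0.0218) and with library weights (-0.15, adjusted p = 0.0476).

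ANGPTL4, which inhibits lipoprotein lipase and so the uptake of fat from lipoproteins, held 1.23, 0.950 and 1.04 FPKM at 0 h. The 48 h libraries had 2.77, 2.52 and 2.93, and the 72 h libraries 2.25, 3.30 and 1.91. Every insulin library lay above 0 h, and the 48 h and 72 h ranges overlapped. ANGPTL4 rose by 0.85 ± 0.13 at 48 h (adjusted p = 4.99e-04) and 0.73 ± 0.13 at 72 h (adjusted p = 0.00111), or by 1.28 and 1.11 with a pseudocount of 0.1.

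**Figure D3:**
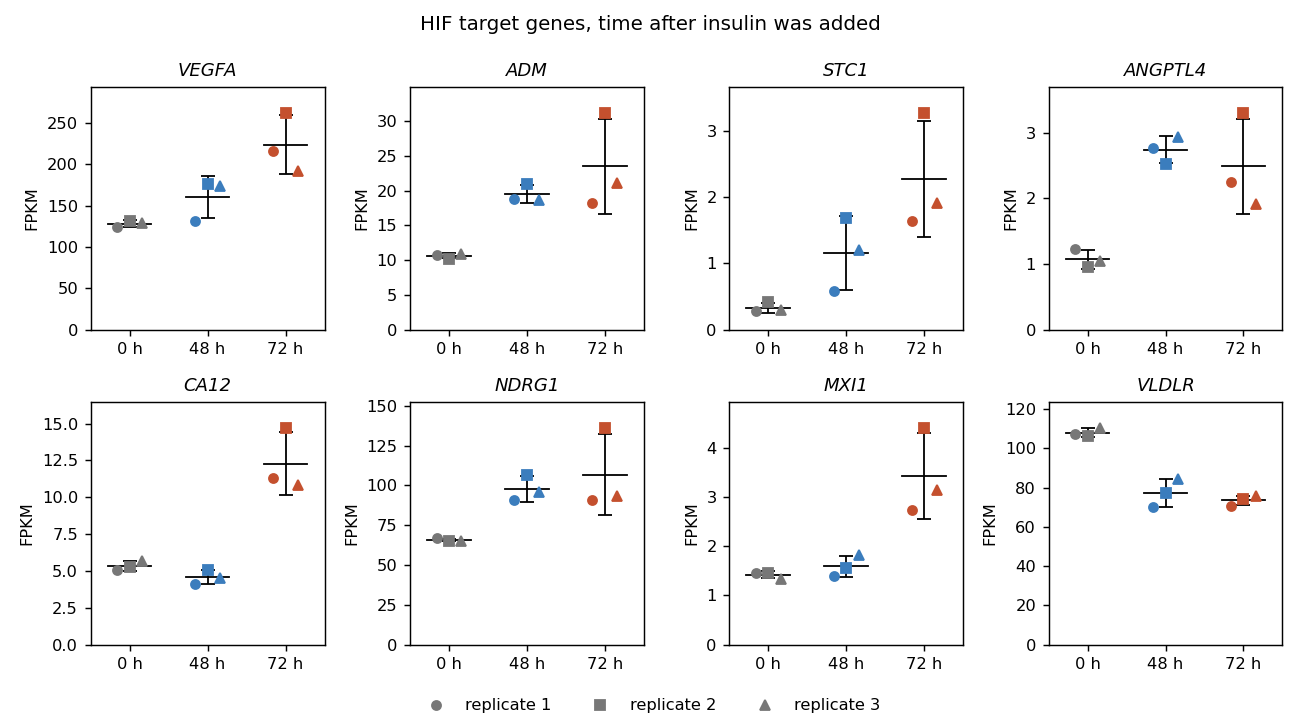
FPKM of 8 HIF target genes in each library at 0 h, 48 h and 72 h, with points for libraries, lines for means and bars for SD (n = 3). ADM, ANGPTL4 and NDRG1 are above 0 h at both times, CA12 and MXI1 at 72 h, and VLDLR is below 0 h at both. Replicate 2 is the highest 72 h library in all of these but VLDLR.

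Genes of acid, fuel and mitochondrial handling differed in their timing. CA12, a carbonic anhydrase on the cell surface that helps to keep pH, lies on chromosome 1 at 108649277 to 108710658. Its values were 5.04, 5.24 and 5.70 FPKM at 0 h, 4.09, 5.08 and 4.55 at 48 h, and 11.3, 14.7 and 10.8 at 72 h. The 0 h and 48 h libraries overlapped, and the 72 h libraries were above both. CA12 was at -0.19 ± 0.11 at 48 h (adjusted p = 0.192), or fell by 0.30 at equal FPKM sums (adjusted p = 0.0437), and rose by 1.06 ± 0.11 at 72 h (adjusted p = 2.46e-05). Its rise from 48 h to 72 h, 1.24 ± 0.11 (adjusted p = 4.39e-05), was the largest of the 29. The whole CA12 span lies within that of APH1B, which stood at 4.13 ± 0.470, 4.67 ± 0.641 and 5.003 ± 0.618 FPKM (SD, n = 3) at the 3 times.

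NDRG1, a stress-responsive protein widely used as a hypoxia marker, held 66.7, 65.3 and 65.3 FPKM at 0 h, 90.6, 107 and 95.8 at 48 h, and 91.1, 136 and 93.3 at 72 h. All insulin libraries lay above 0 h, and the 48 h and 72 h ranges overlapped. It rose by 0.56 ± 0.13 at 48 h (adjusted p = 0.00496) and 0.67 ± 0.13 at 72 h (adjusted p = 0.00174). FAM162A, a mitochondrial protein induced by low oxygen, held 60.8, 57.5 and 68.7 FPKM at 0 h, 109, 105 and 82.3 at 48 h, and 92.8, 122 and 83.8 at 72 h. Its insulin libraries also cleared 0 h at both times, with rises of 0.65 ± 0.14 (adjusted p = 0.00337) and 0.65 ± 0.14 (adjusted p = 0.00316).

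HILPDA, which slows the breakdown of stored fat in lipid droplets, had 26.7, 27.1 and 25.6 FPKM at 0 h, 33.5, 35.5 and 30.7 at 48 h, and 35.5, 47.8 and 33.2 at 72 h. Insulin libraries lay above 0 h, and 48 h overlapped with 72 h. The rise was 0.31 ± 0.11 at 48 h (adjusted p = 0.0414) and 0.52 ± 0.11 at 72 h (adjusted p = 0.00380), and the 48 h call was lost in 5 of the 9 fits that left out a single library and at equal FPKM sums (0.18, adjusted p = 0.171). ERO1A, the oxidase that drives disulfide formation in the endoplasmic reticulum, stood at 14.13, 13.98 and 15.25 FPKM at 0 h, 15.6, 19.5 and 17.9 at 48 h, and 19.3, 24.9 and 23.4 at 72 h. Neither insulin group overlapped with 0 h, but 48 h replicate 1 came close. ERO1A rose by 0.27 ± 0.10 at 48 h (adjusted p = 0.0487) and 0.60 ± 0.10 at 72 h (adjusted p = 7.29e-04), and its 48 h call was lost in 6 of those 9 fits and at equal FPKM sums (0.14, adjusted p = 0.300). Its rise from 48 h to 72 h (0.33 ± 0.10, adjusted p = 0.0361) was lost in 5 of them and with library weights (0.12, adjusted p = 0.195).

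PDK1, a kinase that keeps pyruvate out of the mitochondrial citric acid cycle, held 28.7, 27.8 and 27.2 FPKM at 0 h, 17.9, 25.4 and 28.6 at 48 h, and 32.0, 38.3 and 35.2 at 72 h. The 48 h libraries ran from well below 0 h to its upper end, and all 72 h libraries were higher than the rest. It did not pass the test against 0 h, at -0.24 ± 0.14 (adjusted p = 0.173) and 0.32 ± 0.14 (adjusted p = 0.0788). The 72 h value was called without 48 h replicate 1 or 3 (adjusted p = 0.00526 and 0.0396) and in the fit of only those groups (adjusted p = 0.00554), and the 48 h value without 48 h replicate 3 (-0.37, adjusted p = 0.0318). From 48 h to 72 h it rose by 0.56 ± 0.14 (adjusted p = 0.0149), or by 0.37 without 48 h replicate 1. BNIP3L, a receptor for the removal of mitochondria, was at 25.3 to 26.4 FPKM at 0 h and 24.5 to 29.6 at 48 h, and rose to 33.3 to 37.8 at 72 h (0.45 ± 0.08, adjusted p = 9.40e-04). Its 48 h change of 0.09 was not called (adjusted p = 0.356). It was called without 48 h replicate 1 (0.18, adjusted p = 0.0497) and with library weights (0.17, adjusted p = 0.00331).

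VLDLR, a receptor for lipoproteins rich in triglyceride, was the only member called lower at both times, where 14.7% of all genes were. It held 107, 106 and 110.5 FPKM at 0 h, 69.9, 77.4 and 84.5 at 48 h, and 70.8, 74.0 and 75.6 at 72 h. No insulin library reached the 0 h range. VLDLR fell by 0.48 on the log2 scale at 48 h (SE 0.07, adjusted p = 2.78e-04) and by 0.55 at 72 h (SE 0.07, adjusted p = 8.50e-05). TMEM45A, a membrane protein of the hypoxia signature, ranged from 40.2 to 44.2 FPKM at 0 h, 28.9 to 32.7 at 48 h and 35.7 to 46.8 at 72 h. It fell by 0.44 on the log2 scale at 48 h (SE 0.09, adjusted p = 0.00307) and was at -0.08 at 72 h (adjusted p = 0.531). Its rise from 48 h to 72 h (0.37 ± 0.09, adjusted p = 0.0182) was lost without 48 h replicate 1 (adjusted p = 0.0581).

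The remaining 8 genes, most of them of transcription and chromatin, held 1 call at 48 h, that of ANKRD37. MXI1, which opposes MYC, held 1.46, 1.46 and 1.34 FPKM at 0 h, 1.40, 1.56 and 1.82 at 48 h, and 2.73, 4.41 and 3.15 at 72 h. The 0 h and 48 h libraries overlapped, and all 72 h libraries stood above both. MXI1 was at 0.10 ± 0.13 at 48 h (adjusted p = 0.554) and rose by 0.85 ± 0.13 at 72 h (adjusted p = 3.17e-04), and by 0.76 ± 0.13 from 48 h (adjusted p = 0.00227). ANKRD37, a small ankyrin repeat protein induced by HIF, had 1.90, 2.45 and 1.85 FPKM at 0 h, 3.35, 2.89 and 2.87 at 48 h, and 2.76, 4.96 and 3.47 at 72 h. Both insulin groups cleared 0 h, with rises of 0.40 ± 0.15 (adjusted p = 0.0468) and 0.60 ± 0.15 (adjusted p = 0.00744), of which the first was lost in 6 of the 9 fits that left out a library. Part of its span is shared with UFSP2, which stood at 21.2 ± 0.660, 19.9 ± 1.59 and 19.5 ± 0.694 FPKM (SD, n = 3).

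The histone demethylases KDM3A and KDM4B rose at 72 h, by 0.41 ± 0.10 (adjusted p = 0.00787) and 0.32 ± 0.09 (adjusted p = 0.0114), from means of 5.67 and 14.1 FPKM to 7.90 and 17.9. At 48 h they were at 0.15 and 0.19 and were not called (adjusted p = 0.238 and 0.102). KDM4B was called at 48 h without 48 h replicate 1 (0.25, adjusted p = 0.0462), and both were with library weights (0.25 and 0.27, adjusted p = 0.00212 and 4.16e-04). RORA, a nuclear receptor, rose at 72 h from 0.630 to 0.850 FPKM to 1.18 to 1.33 (0.38 ± 0.10, adjusted p = 0.00992, or 0.70 with a pseudocount of 0.1). It passed the filter only through the 72 h libraries, and with no filter the adjusted p was 0.00989. JMJD6, a hydroxylase of the same oxygen-dependent class, was not called against 0 h and fell by 0.29 on the log2 scale from 48 h to 72 h (SE 0.08, adjusted p = 0.0218), a call lost at equal FPKM sums (adjusted p = 0.0575), after rescaling to protein-coding genes (0.0544), in a fit of only those groups (0.0546) and without 48 h replicate 2 (0.0818) or 72 h replicate 3 (0.0678). WSB1, part of a ubiquitin ligase and the second most abundant member at 0 h with 158 ± 8.64 FPKM (SD, n = 3), was at -0.14 and 0.18 against 0 h (adjusted p = 0.167 and 0.101). The first was a fall at equal FPKM sums (-0.28, adjusted p = 0.0273), after rescaling to protein-coding genes (-0.25, adjusted p = 0.0378) and under quantile normalization (-0.33, adjusted p = 0.0106), and the second a rise without 48 h replicate 1 (adjusted p = 0.0409). It rose by 0.32 ± 0.08 from 48 h to 72 h (adjusted p = 0.0176), a call lost without 72 h replicate 3 (adjusted p = 0.0616). BHLHE41, a repressor linked to the circadian clock, was at 0.25 ± 0.10 and 0.08 ± 0.10 (adjusted p = 0.0632 and 0.565), or at 0.30 and called at 48 h without 48 h replicate 1 (adjusted p = 0.0464), and was not called by the F-test (adjusted p = 0.118).

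**Figure D4:**
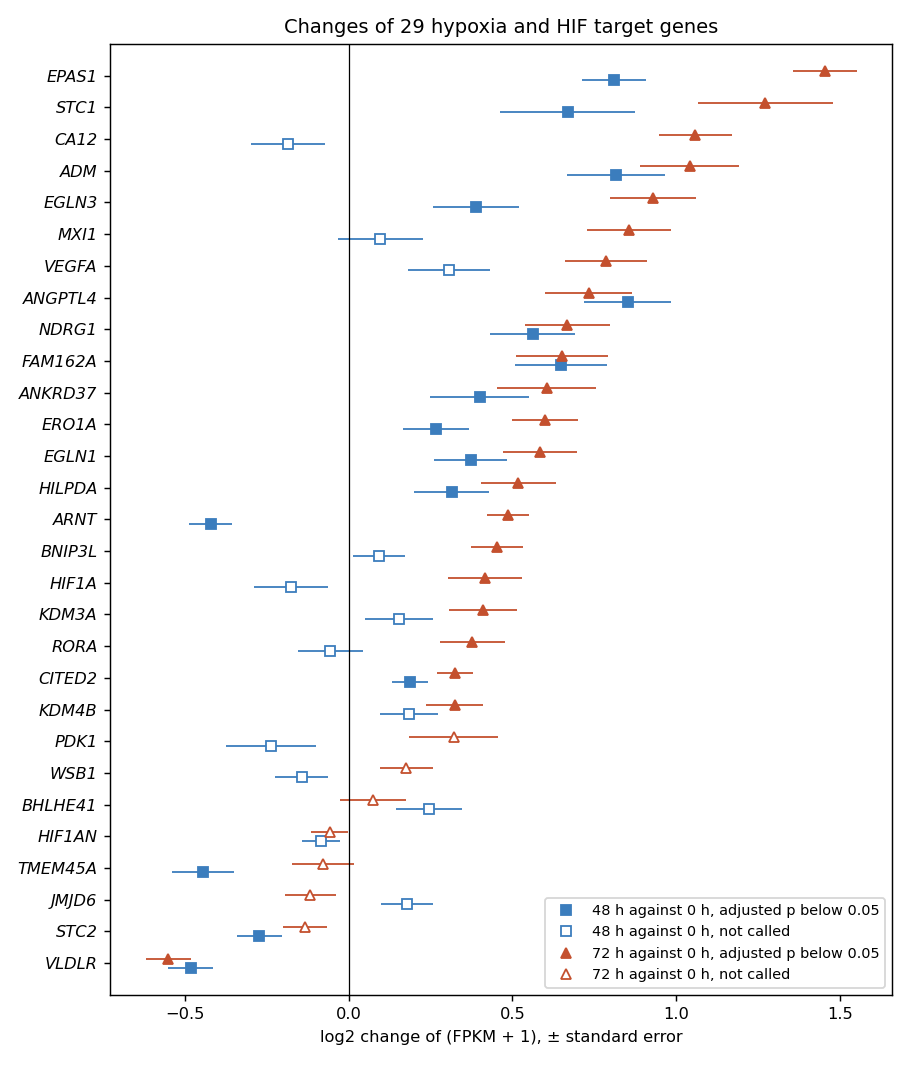
Log2 change of (FPKM + 1) for the 29 genes at 48 h (squares) and 72 h (triangles) against 0 h, with bars for standard errors, sorted by the 72 h change. Filled symbols are called at an adjusted p below 0.05. On this scale, with a pseudocount of 1, EPAS1 stands highest at 1.45 and VLDLR lowest at -0.55 at 72 h.

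The members thus fell into a few patterns over time. Of the 29, 12 rose at both times against 0 h, where 17.1% of all genes did, and 3 of those 12 (EPAS1, EGLN3 and ERO1A) rose again between 48 h and 72 h. Another 8 were called higher at 72 h but not called at 48 h: BNIP3L, CA12, HIF1A, MXI1, RORA, VEGFA, KDM3A and KDM4B. The first 6 of these also rose from 48 h to 72 h. The shares of all genes with this pattern, or with a rise at every step, were not counted. Without 48 h replicate 1, BNIP3L, VEGFA and KDM4B were called higher at 48 h too (adjusted p = 0.0497, 0.00886 and 0.0462). Of the 12 above, ANKRD37, CITED2, EGLN1, EGLN3, ERO1A, HILPDA and STC1 lost the 48 h call in 2 to 6 of the 9 fits that left out a library. The patterns at 48 h are therefore not firm for these genes. Groups did not overlap for 20 of the 29 genes at 48 h and 24 at 72 h, where this held for 60.0% and 58.6% of all genes, and for 14 between 48 h and 72 h, where it held for 38.9%.

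The libraries of a time differed among themselves in these genes. Within 72 h, replicate 2 was the highest library for 22 of the 29 genes (75.9%), where it was the highest for 37.0% of all genes tested, and its median deviation from the group mean was 0.16 on the log2 scale. Within 48 h, replicate 1 was the lowest for 21 (72.4%), against 38.6% of all genes, with a median deviation of -0.13. At 0 h each library was highest for between 9 and 11 genes. Mitochondrial transcripts held 6.13% of the FPKM sum in 72 h replicate 2, the lowest of the 9 libraries, and 7.67% in 48 h replicate 1, the highest, with the others at 6.46% to 7.47%. What these libraries have in common beyond their labels was not tested. Without both, a setting added after the values were seen, 22 of the 29 genes (75.9%) rose and 3 (10.3%) fell at 72 h against 0 h. Of all genes, 22.7% rose and 22.4% fell there. At 48 h, 17 (58.6%) rose and 4 (13.8%) fell, against 24.9% and 20.0% of all genes. The falls gained at 72 h were those of STC2 (-0.18, adjusted p = 0.0340) and TMEM45A (-0.19, adjusted p = 0.0356). Between 48 h and 72 h, 8 (27.6%) then rose and 1 (3.45%) fell, against 6.6% and 12.5% of all genes. The calls of EGLN3 (0.29, adjusted p = 0.0526), ERO1A (0.18, adjusted p = 0.227), TMEM45A (0.21, adjusted p = 0.0635), RORA (adjusted p = 0.0617) and WSB1 (adjusted p = 0.0603) were lost.

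**Figure D5:**
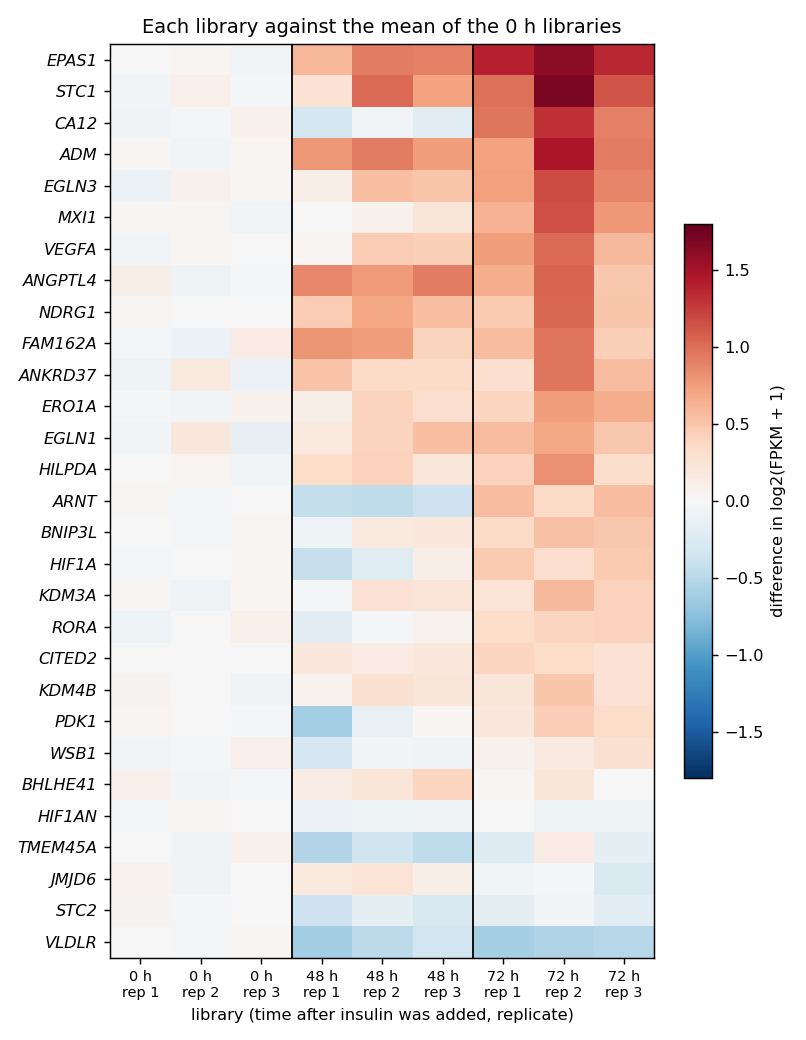
Difference in log2(FPKM + 1) of each library from the mean of the 0 h libraries, for the 29 genes (rows, sorted by the 72 h change) and 9 libraries (columns). Red is higher and blue lower. The column of 72 h replicate 2 is the reddest of its time for 22 genes, and that of 48 h replicate 1 the lowest of its time for 21.

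Other genes of the pathway were read from further lists, which share no gene with the 29. These lists too were chosen with earlier results of these data known, so their shares are no independent check on the 29. For the lists here and in the next paragraph, only the fit reported here was run. Whether their 48 h shares hold under other settings was not tested. Of 12 tested genes of the HIF machinery, 4 (33.3%) rose and 1 (8.33%) fell at 48 h. At 72 h, 5 (41.7%) rose and 1 (8.33%) fell. Of all genes, 27.6% rose and 22.4% fell at 48 h, and 23.0% and 22.5% at 72 h. The 48 h share of rises is near that of all genes. SIAH2, a ubiquitin ligase that acts on the EGLN enzymes, rose at 72 h (0.52 ± 0.13, adjusted p = 0.00731), and ELOB, a subunit of the VHL complex, at 48 h (0.48 ± 0.11, adjusted p = 0.00430). RACK1, a ribosomal scaffold that can promote loss of HIF1A protein, rose by 0.50 ± 0.07 and 0.44 ± 0.07. CUL2, another subunit of that complex, was the gene that fell. Among 22 other HIF targets, 12 (54.5%) rose and 3 (13.6%) fell at 48 h, where 27.6% and 22.4% of all genes did. At 72 h, 15 (68.2%) rose and 3 (13.6%) fell, where 23.0% and 22.5% did. DDIT4, an inhibitor of mTOR, rose most at 48 h, by 1.67 ± 0.16 (adjusted p = 2.65e-05), from 54.0 ± 2.16 to 174.7 ± 26.9 FPKM (SD, n = 3). Among those that fell at both times, EDN1, the vasoconstrictor endothelin, went from 4.02 ± 0.462 (SD, n = 3) to 0.697 ± 0.0651 and 1.10 ± 0.151 FPKM. TGFB3, a growth factor, went from 38.8 ± 1.21 to 20.2 ± 1.53 and 11.7 ± 1.26 FPKM. Their log2 changes at 72 h were -1.26 and -1.65 (adjusted p = 2.09e-06 and 7.11e-08).

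Of 16 HIF-responsive glycolytic enzymes and carriers, 13 (81.2%) rose at 48 h and the other 3 were not called. At 72 h, 12 (75.0%) rose and 1 (6.25%) fell. Of all genes, 27.6% rose and 22.4% fell at 48 h, and 23.0% and 22.5% at 72 h. ENO2, an enolase, rose by 1.95 ± 0.16 at 72 h (adjusted p = 3.34e-06) and SLC16A3, a lactate exporter, by 1.65 ± 0.19 (adjusted p = 5.31e-05). From 48 h to 72 h, 2 of the 16 (12.5%) rose and 1 (6.25%) fell, where 9.17% and 16.3% of all genes did. The share of rises is near that of all genes. ALDOC, an aldolase, was the gene that fell at 72 h, against 0 h and against 48 h alike. Of 6 collagen hydroxylases and crosslinking enzymes, 2 (33.3%) rose at 48 h, near the 27.6% of all genes, and 4 (66.7%) at 72 h, against 23.0%. The others were not called at that time. PLOD1, a lysyl hydroxylase, rose by 0.62 ± 0.09 at 72 h (adjusted p = 2.54e-04).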

How the data were processed

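The authors deposited FPKM values, 1 per gene ID and library, with 2 decimals, per the file headers. Libraries came from total RNA after ribosomal RNA depletion, per the labels' protocols. Tools listed without role or order in the submitters' processing notes are RSEM 1.2.28, HISAT2 2.1.0, DESeq2 and featureCounts 2.0.2, with the build Sscrofa11.1. No label used here states strand, so the 13 of 29 members whose RefSeq span overlaps another annotated gene may share reads with it. IDs were paired with symbols (14864 of 30477), and coordinates came from RefSeq's table of Sscrofa11.1.

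The test covered genes that reached 1 FPKM in 3 or more libraries, on log2(FPKM + 1), a scale that understates changes of low genes, in 1 limma 3.58.1 fit (R 4.3.3) of all 9 libraries, two-sided, with a trend in the prior variance. On simulated data for 48 h against 0 h with 11063 genes, 98 of 100 genes changed by 1 and 71 of 100 changed by 0.5 on the log2 scale were recovered. There were 11 false calls. Only those genes were changed and the noise was independent between libraries. In the data 49.9% of all genes were called at 48 h, so recovery there may differ. Standard errors of log2 changes had a median of 0.0883. Counts and their intervals cannot be had from FPKM. The members and lists were chosen with earlier results of these data known. Values in every library are given for the subunits and regulators and for members called with a log2 change of at least 0.5, and the 2 called genes that changed most at each time were the limit for each other list, with CUL2 and ALDOC named after their values were seen. One gene that this rule names is not reported here. No sequences were used.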

Additional observations from a re-analysis of the deposited data

Results flagged for a closer look

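The 72 h change of 14 members differed from their 48 h change, by limma's test of 72 h against 48 h at an adjusted p below 0.05. The 48 h and 72 h changes share the 0 h libraries, so the log2 difference rests on the 48 h and 72 h libraries alone. The spread in its test comes from all 9 libraries. ERO1A lost this call without 0 h replicate 1 or 3 (adjusted p = 0.0532 and 0.0502). In a fit of only the 48 h and 72 h groups, ERO1A (adjusted p = 0.0729) and JMJD6 (adjusted p = 0.0546) lost it. The log2 differences (72 h minus 48 h) were 1.24 for CA12, 0.91 for ARNT, 0.76 for MXI1, 0.65 for EPAS1, 0.59 for HIF1A, 0.56 for PDK1, 0.54 for EGLN3, 0.48 for VEGFA and 0.43 for RORA. They were 0.37 for TMEM45A, 0.36 for BNIP3L, 0.33 for ERO1A, 0.32 for WSB1 and -0.29 for JMJD6. Among all genes tested, 25.4% were called in this comparison. Of the 14, 9 were called in every planned setting, namely CA12, ARNT, MXI1, EPAS1, HIF1A, PDK1, EGLN3, BNIP3L and RORA.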

How the results depend on the processing

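No called value changed sign under any setting, and the count called by the F-test stayed at 22 to 28. The 22 were of the 23 members with a mean FPKM of at least 5, and the other fits held all 29. Of all genes, 32.0% (no filter on low values) to 82.4% (library weights) were called by the F-test. At 72 h against 0 h, 21 of 22 calls were kept in every planned setting, against 9 of 16 at 48 h and 9 of 14 for 72 h against 48 h. Of uncalled values, 2 changed sign at 48 h, 0 at 72 h and 7 for 72 h against 48 h. The 48 h rises numbered 6 (20.7%) with no filter on low values, where 14.4% of all genes rose. They also numbered 6 at equal FPKM sums (with 7 falls), where 17.7% of all genes rose and 33.4% fell. After rescaling to protein-coding genes there were 6 rises (20.7%) and 6 falls (20.7%), where 19.2% of all genes rose and 30.8% fell. In that fit the share of rises was near that of all genes. Falls at 72 h numbered 2 under quantile normalization and 2 with library weights, whose estimate did not fully converge. Of all genes, 22.5% and 26.8% fell in those fits. For 72 h against 48 h, 0 fell at equal FPKM sums, after rescaling to protein-coding genes and in the fit of only those groups. Of all genes, 10.2%, 10.5% and 10.9% fell there. Leaving out 1 library gave 5 to 14 rises and 4 to 6 falls at 48 h. In those fits 22.6% to 27.9% of all genes rose and 17.5% to 24.3% fell. At 72 h there were 21 to 23 rises and 1 fall, against 19.1% to 24.6% and 17.9% to 24.5% of all genes. For 72 h against 48 h there were 10 to 14 rises and 0 to 1 falls, against 5.32% to 13.5% and 10.3% to 19.8% of all genes. Without 48 h replicate 1 and 72 h replicate 2, 17 rose at 48 h, 3 fell at 72 h and 8 rose from 48 h to 72 h. Of all genes, 24.9%, 22.4% and 6.6% did. The causes were not tested. Whether replicate numbers pair the libraries cannot be settled with 3 libraries at each time. Deviations of same-numbered libraries correlated at -0.07 to 0.19, and those of libraries with unlike numbers at -0.18 to 0.17. Of the 9 libraries, 4 correlated best with their own number. With the replicate block the rises were 13, 22 and 14 and the falls 4, 1 and 1. Of all genes, 27.8%, 23.5% and 9.89% then rose and 23.1%, 23.0% and 17.5% fell.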

Other observations

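Ratios of members within a library do not depend on how libraries are scaled. The ratio of EPAS1 to HIF1A FPKM was 0.0984, 0.0978 and 0.0894 in the 0 h libraries, 0.195, 0.214 and 0.168 at 48 h, and 0.184, 0.242 and 0.180 at 72 h, so that 48 h and 72 h lay above 0 h and overlapped with each other. The ratio of ARNT to HIF1A was 0.289, 0.271 and 0.272 at 0 h, 0.274, 0.234 and 0.197 at 48 h, and 0.293, 0.287 and 0.296 at 72 h. EGLN3 to EGLN1 stood at 0.487, 0.465 and 0.584 at 0 h, 0.494, 0.583 and 0.505 at 48 h, and 0.595, 0.753 and 0.704 at 72 h. These pairs were chosen after the values were seen and were not tested.

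The 72 h library in which most members were highest, replicate 2, was also the highest of its time for all 16 glycolytic genes, with a median deviation from the group mean of 0.28 on the log2 scale. It was the highest for 37.0% of all genes tested. In 48 h replicate 1, the lowest library of its time for most members, 6 of these 16 genes (37.5%) were lowest, near the 38.6% of all genes. Instead, 48 h replicate 3 was lowest for 10 of the 16 (62.5%), against 37.1% of all genes. Replicate 2 of 48 h was highest for 14 (87.5%), against 21.9%.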
